A study of Mus musculus with 12 samples.

Results

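Calcineurin, nuclear factor of activated T cells (NFAT) and calcium/calmodulin-dependent kinase II (CaMKII) make up the calcium-regulated signalling branch followed here, in heart ventricles of 12 mice. The branch is represented by 10 genes picked by name: the calcineurin regulators Rcan1 and Rcan2, the calcineurin catalytic subunits Ppp3ca and Ppp3cb, the transcription factors Nfatc1, Nfatc2, Nfatc3 and Nfatc4, and the CaMKII isoforms Camk2d and Camk2g. All 10 were among the 14957 genes of the count tables, and all 10 passed the filter on low counts with 13910 genes in total.

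TAC-BacNav mice had transverse aortic constriction (TAC), a narrowing of the aorta that raises the load on the left heart, and were given AAV9 with BacNav, a voltage-gated sodium channel from bacteria, joined with the red fluorescent protein mScarlet. TAC-mScarlet mice had the same operation and an AAV9 vector carrying mScarlet alone. Sham-NT mice were operated without constriction and were given saline (PBS). The groups held 4 mice each, all wild-type C57Bl/6J. Both vectors used MHCK7, a promoter active in striated muscle, so the transgene was aimed at cardiomyocytes although whole ventricle was sequenced. Age, sex and the time after surgery were not given in the sources used here. Constriction and vector differ together between TAC-mScarlet and Sham-NT, as they do between TAC-BacNav and Sham-NT, so their effects cannot be told apart in those comparisons.

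Calcineurin is a phosphatase that calcium-bound calmodulin switches on. It removes phosphate groups from NFAT proteins, which then enter the nucleus, while kinases such as GSK3, DYRK and casein kinase 1 send them back out. In the loaded heart this route is known for driving hypertrophic growth, and CaMKII, a kinase switched on by the same calmodulin, is known for acting on calcium channels of the cardiomyocyte and on class IIa histone deacetylases that hold MEF2 factors in check.

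Libraries held 7.36 to 11.5 M counts (mega-counts) in TAC-BacNav, 8.28 to 9.81 M in TAC-mScarlet and 5.36 to 7.84 M in Sham-NT, so every Sham-NT library was shallower than every TAC-mScarlet library. The 8 ventricular cardiomyocyte markers (among them Myh6, Tnnt2 and Ryr2) were detected in every group and summed to 61138 to 81801 CPM (counts scaled to 1 M of the TMM-adjusted library total) in TAC-BacNav, 51784 to 68188 CPM in TAC-mScarlet and 80073 to 88781 CPM in Sham-NT. The immediate early gene Fos, which responds within minutes to stress or handling, lay above 20 CPM in TAC-BacNav 1 and 2, TAC-mScarlet 1, 2 and 3, and Sham-NT 1 and 2, and below it in the other 5 libraries.

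Rcan1 (regulator of calcineurin 1), a protein that binds and inhibits calcineurin, was the member that differed between groups. The mouse gene (ENSMUSG00000022951.16) lies on the minus strand of chromosome 16, 92391953 to 92470867 on GRCm38. Besides a far upstream start, it has an intragenic start whose short transcript is known as a target of calcineurin and NFAT and is widely used as a readout of that route. The 250 bases before each of these starts are printed from RefSeq (GRCm38.p6), in the direction of transcription. They are shown because, of these windows, only the intragenic one carries the short NFAT core. Capitals mark GGAAA or its reverse complement TTTCC, both strands having been searched.
Rcan1 intragenic start, chr16:92400079-92400328, minus strand: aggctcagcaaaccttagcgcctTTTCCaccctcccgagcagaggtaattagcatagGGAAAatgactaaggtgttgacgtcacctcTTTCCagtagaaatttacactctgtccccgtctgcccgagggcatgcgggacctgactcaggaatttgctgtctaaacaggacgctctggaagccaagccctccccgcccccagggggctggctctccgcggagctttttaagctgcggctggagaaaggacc
Rcan1 upstream start, chr16:92466170-92466419, minus strand: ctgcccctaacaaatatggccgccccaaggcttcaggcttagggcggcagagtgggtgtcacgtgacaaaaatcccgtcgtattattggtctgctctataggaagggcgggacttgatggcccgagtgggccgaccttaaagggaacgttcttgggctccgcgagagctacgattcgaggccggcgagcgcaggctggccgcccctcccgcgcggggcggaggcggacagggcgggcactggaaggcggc
The intragenic window held 3 GGAAA cores, which began 227, 193 and 163 bases before the start, and the upstream window held 0. Of 32851 mouse promoter windows of 250 bases, 55.6% held at least 1 GGAAA, 21.4% at least 2 and 6.39% at least 3. The same window held 1 TGACTCA, the AP-1 site, which 4.46% of promoter windows carry, and 1 TGACGTCA, the cyclic AMP response element, which 1.55% carry. Promoters were found in the table for 7 of the 10 members, in 12 windows, and 4 windows from 4 genes (Rcan1, Nfatc2, Nfatc4 and Ppp3cb) held at least 3 GGAAA cores. A match of so short a motif is a description of the letters and not evidence of a bound factor. The counts are per gene, so transcripts from the 2 listed starts of Rcan1 were not separated. The annotated gene reaches to 92470867, beyond the upstream window, so a further start may lie outside what is printed.

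In TAC-BacNav mice 1 to 4 Rcan1 stood at 129, 219, 181 and 185 CPM. The TAC-mScarlet mice had 341, 145, 372 and 529 CPM, and the Sham-NT mice had 160.0, 84.7, 108 and 93.9 CPM. In 3 of 4 TAC-mScarlet ventricles Rcan1 was above every other library of the study, whereas TAC-mScarlet 2 fell below Sham-NT 1, so the groups overlapped. TAC-mScarlet spread most widely, with a mean of 346 ± 158 CPM (SD, n = 4), against 179 ± 37.1 CPM in TAC-BacNav and 112 ± 33.6 CPM in Sham-NT.

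**Figure D1:**
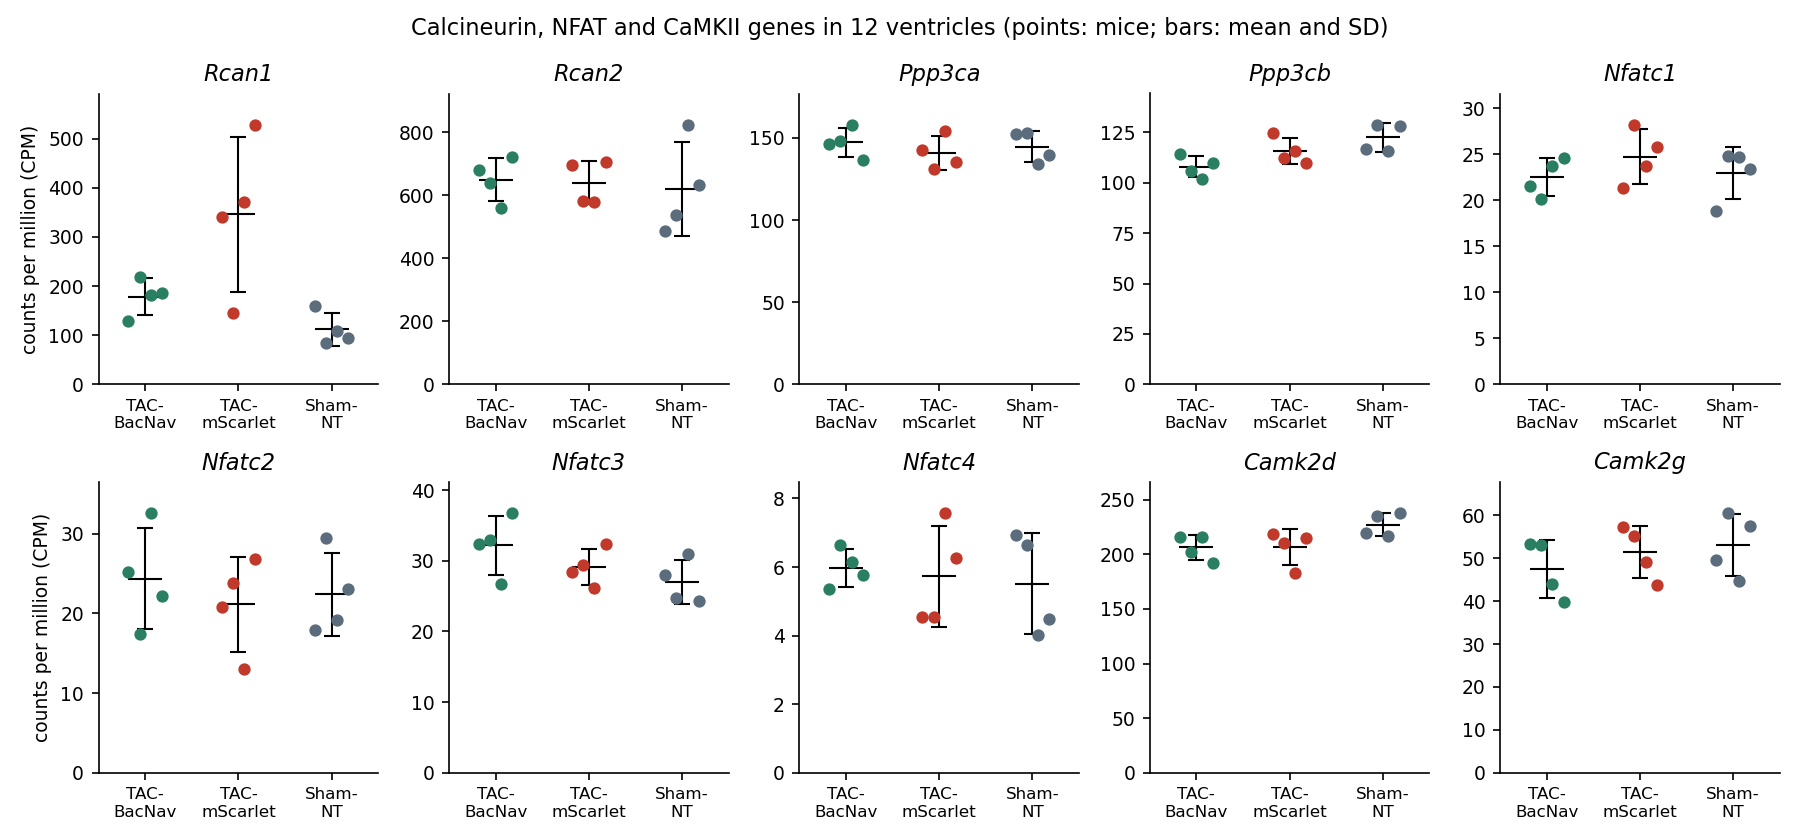
Level of each of the 10 genes in CPM, with the y axis from 0. Points are single mice, and bars show mean and SD for TAC-BacNav, TAC-mScarlet and Sham-NT (n = 4 each). Rcan1 reaches 341 to 529 CPM in 3 TAC-mScarlet mice, against at most 219 CPM in TAC-BacNav and 160.0 CPM in Sham-NT, while none of the other 9 genes passed the test in any comparison.

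The comparison of TAC-mScarlet with Sham-NT asks what constriction with the control vector did to the branch. Rcan1 was 3.10-fold higher in TAC-mScarlet, a log2 fold change of 1.63 ± 0.33 (SE; 95% interval 0.91 to 2.35; adjusted p = 0.0245, from the edgeR quasi-likelihood test with the Benjamini-Hochberg method over all genes). Of the 10 members 1 rose, 0 fell and 9 did not pass. Among all genes tested, 5.17% passed this threshold, made up of 2.65% higher and 2.52% lower, so a count of 1 among 10 says little about the members as a set. At an unadjusted p below 0.05 there was 1 member of 10 (Rcan1), beside 22.2% of all genes. The libraries of the groups did not overlap for 0 of 10 members and for 13.1% of all genes. The median log2 fold change was 0.0044 over the members and also 0.0044 over all genes.

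The call for Rcan1 was lost, with its direction kept, when Sham-NT 2, Sham-NT 4 or TAC-mScarlet 3 was left out (adjusted p = 0.0802, 0.0781 and 0.0784 in edgeR, against a range of 2.3e-05 to 0.273 over all alternatives). Within the libraries with Fos above 20 CPM, which are 3 TAC-mScarlet and 2 Sham-NT mice, the log2 fold change was 1.23 (adjusted p = 0.273). On the other side of that split the single TAC-mScarlet library, at 7.89 CPM of Fos, had the highest Rcan1 of the study, 529 CPM, against 108 and 93.9 CPM in 2 Sham-NT libraries. With a term for the split in the model the log2 fold change was 1.65 (adjusted p = 0.0161 by edgeR). Markers of some other cells moved in the same comparison. Of 6 activated fibroblast markers, the 5 tested (Postn, Fn1, Meox1, Cilp and Thbs4, none at 0 in any library) summed to 403 to 3050 CPM in TAC-mScarlet and 108 to 129 CPM in Sham-NT, and the 8 macrophage markers to 727 to 1201 CPM in TAC-mScarlet and 485 to 643 CPM in Sham-NT, while the cardiomyocyte sum was lower in every TAC-mScarlet library. TAC-mScarlet 3 gave the upper end of the activated fibroblast and macrophage sums, which reached at most 1199 and 745 CPM in the other TAC-mScarlet mice. Endothelial sums overlapped, with 1019 to 1162 CPM in TAC-mScarlet and 977 to 1046 CPM in Sham-NT. Smooth muscle and pericyte sums overlapped too, with 1336 to 1737 CPM in TAC-mScarlet and 1254 to 1720 CPM in Sham-NT. Of the cardiomyocyte markers, Myh6, Tnni3, Tnnt2 and Ryr2 were lower in every TAC-mScarlet library than in every Sham-NT library. Actc1, Myl2, Myl3 and Mybpc3 overlapped between these groups. Mybpc3 leaned the other way, with 2821 to 3607 CPM in TAC-mScarlet and 2578 to 3200 CPM in Sham-NT. The part of these marker shifts in the Rcan1 difference was not tested. In bulk tissue, fewer cells of a type and less RNA per cell cannot be told apart.

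The comparison of TAC-BacNav with TAC-mScarlet asks what BacNav added under constriction. Rcan1 was at 0.515 of its TAC-mScarlet level in TAC-BacNav, a log2 fold change of -0.96 ± 0.32 (95% interval -1.66 to -0.25). Its unadjusted p was 0.0117 and its adjusted p 0.9995 in edgeR, so it did not pass. No gene passed in this comparison, 0% of 13910, with 467 genes (3.36%) at an unadjusted p below 0.05 and 5 called by DESeq2. Accordingly 0 of 10 members were called by edgeR, 1 (Rcan1) had an unadjusted p below 0.05, and DESeq2 gave Rcan1 an adjusted p of 0.670. The groups did not overlap for 0 of 10 members and for 1.7% of all genes. TAC-BacNav 2, at 219 CPM, lay above TAC-mScarlet 2, at 145 CPM, while the other 3 TAC-mScarlet libraries lay above all 4 TAC-BacNav libraries.

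Set against Sham-NT, which tells how far constricted hearts with BacNav stood from sham levels, Rcan1 in TAC-BacNav was 1.60-fold higher. This is a log2 fold change of 0.68 ± 0.33 (95% interval -0.03 to 1.38; adjusted p = 0.464 in edgeR). Sham-NT 1, at 160.0 CPM, exceeded TAC-BacNav 1, at 129 CPM, and every other Sham-NT library lay below all TAC-BacNav libraries. In this comparison 0.0144% of genes passed (2 of 13910), 1544 genes (11.1%) had an unadjusted p below 0.05 and DESeq2 called 38. Of the members edgeR called 0 of 10, with 0 at an unadjusted p below 0.05. The 3 comparisons share libraries, so Rcan1's values in them are not independent of each other.

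**Figure D2:**
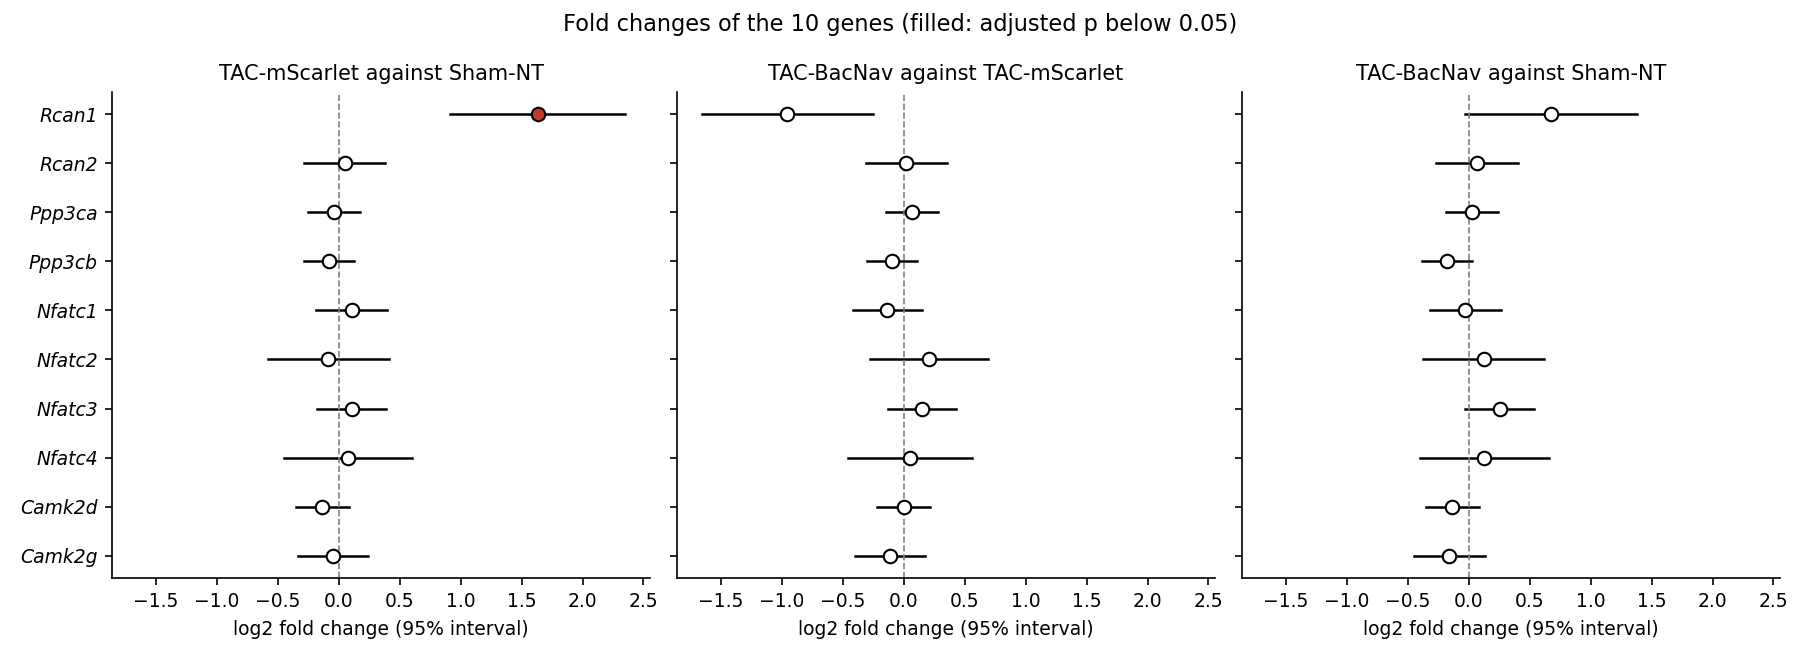
Log2 fold change (x axis) of the 10 genes with 95% intervals in the 3 comparisons. Filled points passed an adjusted p of 0.05. Rcan1 stands at 1.63 in TAC-mScarlet against Sham-NT, at -0.96 in TAC-BacNav against TAC-mScarlet and at 0.68 in TAC-BacNav against Sham-NT, and the intervals of the other 9 genes all include 0.

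Rcan2, the second regulator of calcineurin and a close relative of Rcan1, gave the highest level of all members per length of annotated exon. Its gene (ENSMUSG00000039601.16) lies on chromosome 17, 43801351 to 44039516. It held 680, 638, 559 and 721 CPM in TAC-BacNav, 696, 581, 578 and 705 CPM in TAC-mScarlet and 485, 536, 824 and 631 CPM in Sham-NT. The Sham-NT mice alone spanned the range of the 8 other mice, and no comparison passed (log2 fold change 0.05 ± 0.16 in TAC-mScarlet against Sham-NT, adjusted p = 0.901 by edgeR). The third family gene, Rcan3, which is no member, was higher in every TAC-mScarlet library (11.9 to 14.6 CPM) than in every Sham-NT library (7.14 to 10.09 CPM) but did not pass (0.53 ± 0.18, adjusted p = 0.0906 by edgeR).

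As counts per kilobase of exon, Rcan1 made up 21.0, 32.4, 31.2 and 26.4% of the RCAN family in TAC-BacNav, 40.5, 25.7, 47.2 and 51.2% in TAC-mScarlet and 31.6, 18.1, 15.6 and 17.2% in Sham-NT. The mean share was 20.5 percentage points higher in TAC-mScarlet compared with Sham-NT (exact two-sided permutation p = 0.0571, adjusted p = 0.267 over 14 shares), 13.4 points lower in TAC-BacNav than in TAC-mScarlet (exact p = 0.114) and 7.10 points higher in TAC-BacNav than in Sham-NT (exact p = 0.171). Of the TAC-mScarlet mice, 1 (mouse 2) lay within the Sham-NT range of shares. With 4 libraries against 4 there are 70 arrangements and the smallest p is 0.0286, so a share could pass the adjustment only if many shares reached that p together. None of the 14 paralog shares passed after adjustment in any of the 3 comparisons.

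No calcineurin catalytic subunit passed the test in any comparison. Ppp3ca, the alpha subunit (ENSMUSG00000028161.17, chromosome 3, 136670124 to 136937727), averaged 147 ± 8.74 CPM in TAC-BacNav, 141 ± 10.2 CPM in TAC-mScarlet and 145 ± 9.43 CPM in Sham-NT, with full overlap of the groups. Its log2 fold change in TAC-mScarlet against Sham-NT was -0.04 ± 0.10, with a 95% interval of -0.25 to 0.18.

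Ppp3cb, the beta subunit, whose loss blunts load-induced growth of the mouse heart, lies on the minus strand of chromosome 14, 20499364 to 20546573 (ENSMUSG00000021816.11). It had 115, 106, 102 and 109.99 CPM in TAC-BacNav, 125, 112, 116 and 109.95 CPM in TAC-mScarlet and 117, 129, 116 and 128 CPM in Sham-NT. Every TAC-BacNav library was below every Sham-NT library, and TAC-mScarlet lay between and overlapped both. The log2 fold change of TAC-BacNav against Sham-NT was -0.18 ± 0.10 (95% interval -0.38 to 0.02; unadjusted p = 0.0783, adjusted p = 0.491 by edgeR), so it did not pass. Ppp3cb's share of the 3 catalytic subunits, per kilobase, was 28.5 ± 0.864% in TAC-BacNav, 30.1 ± 1.08% in TAC-mScarlet and 32.6 ± 2.02% in Sham-NT (SD, n = 4 each). In TAC-BacNav against Sham-NT it differed by -4.12 percentage points, with the smallest p this design allows (exact permutation p = 0.0286) and an adjusted p of 0.4. The remaining family genes, Ppp3cc, a catalytic subunit, and Ppp3r1, the regulatory B subunit, had adjusted p of 0.396 and 0.447 by edgeR in TAC-mScarlet against Sham-NT.

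The NFAT factors were low and varied more between mice of a group than between groups. Nfatc1, which is known for its role in valve formation from the endocardium (ENSMUSG00000033016.16, chromosome 18, 80606205 to 80713071), ran from 20.2 to 24.6 CPM in TAC-BacNav, 21.3 to 28.2 CPM in TAC-mScarlet and 18.8 to 24.8 CPM in Sham-NT. Nfatc2 (ENSMUSG00000027544.16, chromosome 2, 168476410 to 168601657), a factor first described in T cells and needed in the mouse for calcineurin-driven cardiac growth, ran from 17.4 to 32.6 CPM in TAC-BacNav, 13.0 to 26.8 CPM in TAC-mScarlet and 17.8 to 29.5 CPM in Sham-NT. Nfatc4 (ENSMUSG00000023411.12, chromosome 14, 55823144 to 55833943), the family member that partners GATA4 in cardiomyocytes, ran from 5.35 to 6.64 CPM in TAC-BacNav, 4.53 to 7.57 CPM in TAC-mScarlet and 4.01 to 6.94 CPM in Sham-NT. All ranges overlapped widely. In TAC-mScarlet against Sham-NT the log2 fold changes were 0.11 ± 0.14 for Nfatc1, -0.09 ± 0.23 for Nfatc2 and 0.07 ± 0.25 for Nfatc4.

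Nfatc3, whose loss in the mouse lessens hypertrophy under pressure load (ENSMUSG00000031902.10, chromosome 8, 106058840 to 106130537), had the smallest p among the members other than Rcan1 in TAC-BacNav against Sham-NT. It stood at 32.3, 32.9, 26.7 and 36.7 CPM in TAC-BacNav, 28.4, 29.4, 26.2 and 32.4 CPM in TAC-mScarlet and 27.95, 24.8, 30.9 and 24.4 CPM in Sham-NT. In 3 of 4 TAC-BacNav mice the level was above every Sham-NT mouse, and TAC-BacNav 3 lay inside the Sham-NT range. The log2 fold change was 0.25 ± 0.13 (95% interval -0.03 to 0.53; unadjusted p = 0.0755, adjusted p = 0.488 by edgeR) and did not pass. Its annotated exons share 219 bases, 1.87% of their length, with Esrp2 on the opposite strand, and details of strand in the counting were not given in the sources used here. Nfat5, the tonicity-responsive relative that calcineurin does not regulate, had a log2 fold change of -0.01 ± 0.13 in TAC-mScarlet against Sham-NT.

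Among NFATc genes, Nfatc1 took 33.1% of counts per kilobase in TAC-BacNav, 37.8% in TAC-mScarlet and 36.3% in Sham-NT. The difference of TAC-BacNav from TAC-mScarlet, -4.65 points, gave the smallest possible exact permutation p of 0.0286 and an adjusted p of 0.4. All TAC-BacNav shares (32.2 to 34.6%) lay below all TAC-mScarlet shares (35.1 to 40.5%), whereas the CPM of Nfatc1 overlapped between those groups.

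**Figure D3:**
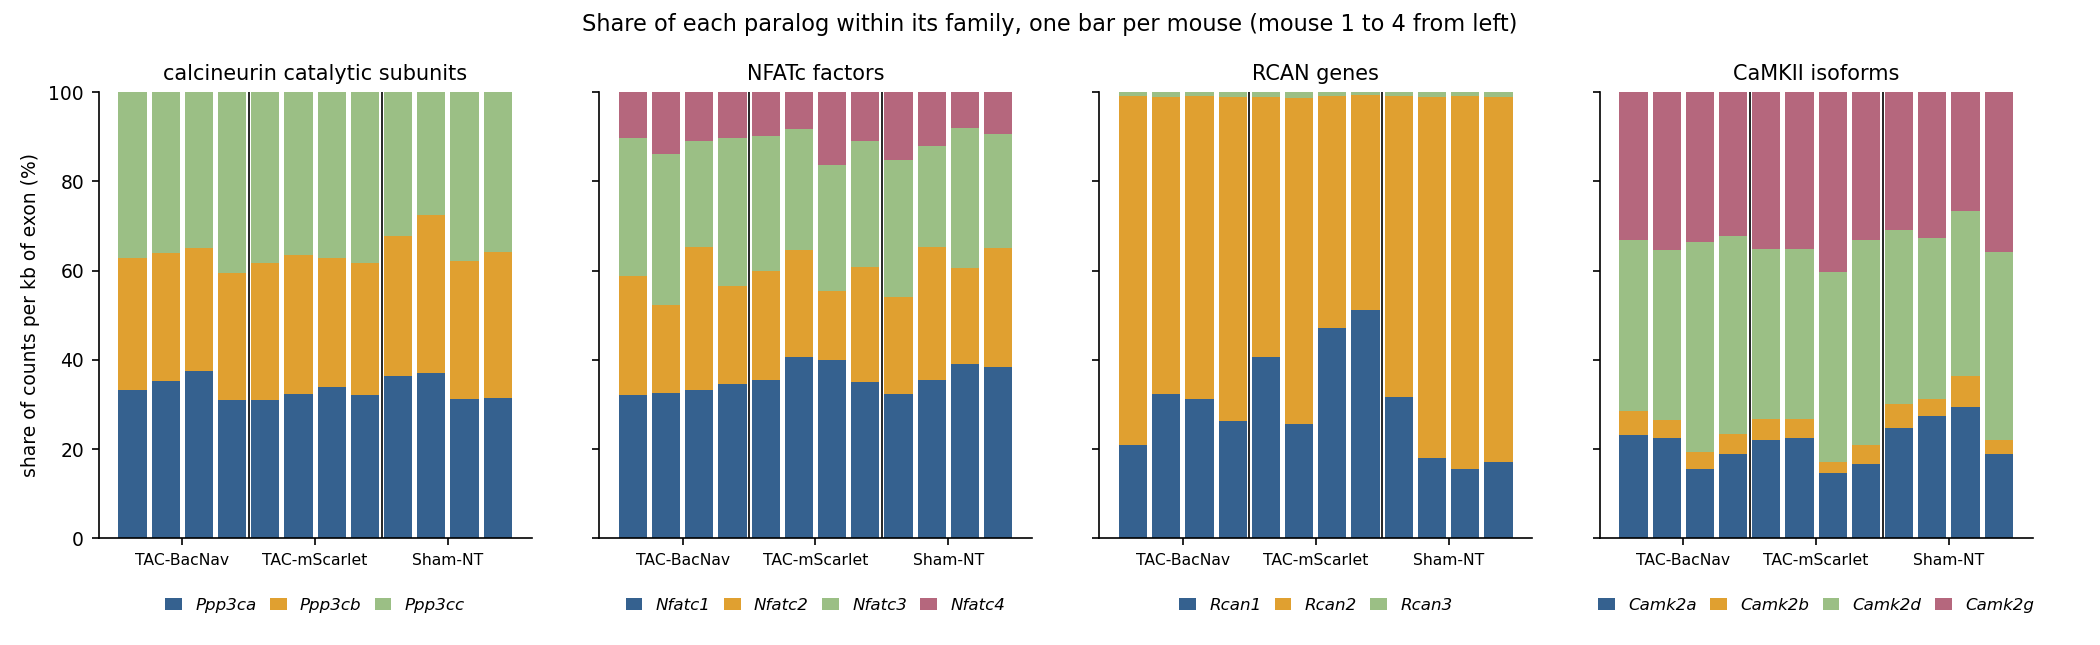
Share of each paralog within its family in percent of counts per kilobase of exon, 1 bar per mouse, with mouse 1 to 4 from left in each group. The Rcan1 segment reaches 40.5 to 51.2% in 3 TAC-mScarlet mice, against 21.0 to 32.4% in TAC-BacNav and 15.6 to 31.6% in Sham-NT, and its groups overlap. Nfatc1 (TAC-BacNav below TAC-mScarlet) and Ppp3cb (TAC-BacNav below Sham-NT) have shares that do not overlap, and no share passed after adjustment.

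Camk2d, the delta isoform and the main CaMKII gene of cardiomyocytes (ENSMUSG00000053819.16, chromosome 3, 126596302 to 126846326), had 215, 202, 216 and 192 CPM in TAC-BacNav, 218, 210.3, 183 and 215 CPM in TAC-mScarlet and 219, 235, 217 and 238 CPM in Sham-NT. Every TAC-BacNav library was below every Sham-NT library, by less than 1 CPM at the nearest pair (215.7 and 216.6 CPM), and the difference did not pass (log2 fold change -0.14 ± 0.10, adjusted p = 0.624 by edgeR). TAC-mScarlet differed from Sham-NT by -0.14 ± 0.10 as well (adjusted p = 0.477), with overlap. Ppp3cb and Camk2d were thus the 2 of 10 members whose TAC-BacNav and Sham-NT libraries did not overlap, both lower in TAC-BacNav, against 5.45% of all genes in either direction and 2.37% lower.

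Camk2g, the gamma isoform and the second CaMKII gene of the heart (ENSMUSG00000021820.18, chromosome 14, 20734875 to 20794088), ran from 39.8 to 53.4 CPM in TAC-BacNav, 43.8 to 57.2 CPM in TAC-mScarlet and 44.8 to 60.5 CPM in Sham-NT. The groups overlapped, with log2 fold changes of -0.05 ± 0.14 in TAC-mScarlet against Sham-NT and -0.11 ± 0.14 in TAC-BacNav against TAC-mScarlet. Per kilobase of exon, Camk2d made up 41.9 ± 4.42% of CaMKII in TAC-BacNav, 41.3 ± 3.88% in TAC-mScarlet and 38.5 ± 2.70% in Sham-NT, and Camk2g made up 33.6 ± 1.25% in TAC-BacNav, 35.9 ± 3.07% in TAC-mScarlet and 31.5 ± 3.78% in Sham-NT. The union of annotated Camk2d exons is 22493 bases long, so a length that counts exons unused in the heart lowers its share. Camk2a, the isoform best known from brain, had the largest change in the isoform list, -0.61 ± 0.25 in TAC-mScarlet against Sham-NT, and did not pass (adjusted p = 0.165 by edgeR). Camk2b (-0.54 ± 0.29) and the CaMKII inhibitor gene Camk2n1 (-0.12 ± 0.13) did not pass either.

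The intervals bound how large a change in the other 9 members these libraries would allow. In TAC-mScarlet against Sham-NT their 95% intervals ran from 0.668-fold to 1.52-fold, with the smallest adjusted p at 0.477 by edgeR. In TAC-BacNav against TAC-mScarlet they ran from 0.729-fold to 1.62-fold, and in TAC-BacNav against Sham-NT from 0.732-fold to 1.57-fold. The widest belonged to Nfatc2 and Nfatc4. Missing the threshold does not show that a gene was unchanged.

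Levels can be compared between genes only per length, here the union of annotated exons. A union that counts exons unused in the heart lowers a gene's place in the order, as may hold for Camk2d with 22493 bases. In Sham-NT ventricles Rcan2 had 142 ± 34.1 CPM per kilobase of exon, Rcan1 36.2 ± 10.9, Ppp3ca 14.5 ± 0.945, Ppp3cb 13.9 ± 0.801, Camk2d 10.1 ± 0.472, Camk2g 8.29 ± 1.13, Nfatc1 3.07 ± 0.376, Nfatc3 2.30 ± 0.262, Nfatc2 2.12 ± 0.494 and Nfatc4 0.950 ± 0.255 (SD, n = 4). Of the neighbours in that order, Ppp3ca and Ppp3cb, and Nfatc3 and Nfatc2, lay within 1 SD of each other. In TAC-mScarlet Rcan1 averaged 112 ± 51.1 CPM per kilobase and approached Rcan2 at 146 ± 15.9.

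The pathway around the members was followed in 77 other genes, of which 68 were tested. In TAC-mScarlet against Sham-NT 6 were higher and 4 lower (14.7%), but 6 of those 10 are reporter genes of hypertrophy. Whether the branch drives these reporters was not tested. Without the reporters, 2 of 62 rose and 2 fell (6.45%, beside 5.17% of all genes). In both comparisons of TAC-BacNav 0 of 68 passed.

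Both genes that rose were in the list of calcium entry and release channels, where the other 8 tested genes did not pass. Of 10 tested entry and release channel genes, Orai2, a pore subunit of store-operated calcium channels, had 1.98 to 3.86 CPM in TAC-BacNav, 2.72 to 4.50 CPM in TAC-mScarlet and 0.586 to 1.44 CPM in Sham-NT, and was 3.17-fold higher in TAC-mScarlet, relative to Sham-NT (log2 fold change 1.67 ± 0.34, adjusted p = 0.0229 by edgeR). Those levels rest on 24 to 47 counts per TAC-mScarlet library and 3 to 10 per Sham-NT library. Stim2, a calcium sensor of the endoplasmic reticulum that opens such channels, had 26.0 to 38.2 CPM in TAC-BacNav, 25.7 to 35.7 CPM in TAC-mScarlet and 19.8 to 23.6 CPM in Sham-NT (0.53 ± 0.15 in TAC-mScarlet against Sham-NT, adjusted p = 0.0473 by edgeR). For both genes every library of either constricted group lay above every Sham-NT library. Over all genes, in either direction, 13.1% did not overlap between TAC-mScarlet and Sham-NT and 5.45% between TAC-BacNav and Sham-NT. Both genes were picked by their calls in these libraries, so this separation adds no independent support. Their relatives Orai1 (0.04 ± 0.17), Orai3 (-0.24 ± 0.13) and Stim1 (-0.18 ± 0.16) did not pass in TAC-mScarlet against Sham-NT. Per kilobase of exon, TAC-mScarlet averaged 0.627 CPM for Orai2, 4.03 for Orai1 and 10.7 for Orai3.

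Of the 13 tested calcineurin inhibitors and anchors that are not members, 0 rose and 1 fell. This was Tbc1d10c (carabin), a calcineurin inhibitor known from lymphocytes, at 1.73 to 4.95 CPM in TAC-BacNav, 0.580 to 2.51 CPM in TAC-mScarlet and 3.24 to 10.9 CPM in Sham-NT (log2 fold change -2.24 ± 0.50 in TAC-mScarlet against Sham-NT, adjusted p = 0.0260 by edgeR). It had 5 to 21 counts per TAC-mScarlet library, and 35.5% of its exon bases are shared with the annotated gene AC109138.8, so its count is uncertain. Of 8 T cell markers 3 were in the tables and 0 passed the filter on low counts. Of 12 tested kinases that export NFAT from the nucleus 0 rose and 1 fell. That gene, Mapk14, the p38 alpha kinase, had 67.3 to 97.5 CPM in TAC-BacNav, 56.7 to 84.9 CPM in TAC-mScarlet and 91.6 to 121 CPM in Sham-NT (-0.56 ± 0.15 in TAC-mScarlet against Sham-NT, adjusted p = 0.0419).

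In the remaining lists 0 genes passed in TAC-mScarlet against Sham-NT. They were the calcineurin subunits (4 tested), the NFAT factors (5), CaMKII isoforms and inhibitors (6), other calmodulin kinases (4), calmodulin genes and calmodulin-binding peptides (4), class IIa histone deacetylases and MEF2 factors (7) and CaMKII substrates such as Ryr2 and Pln (5). Median log2 fold changes ran from -0.31 in the CaMKII substrates to 0.41 in the other calmodulin kinases, beside 0.0044 over all genes. Pln shares 59.6% of its exon bases with the annotated gene Gm47644 on the opposite strand, so its count is uncertain.

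**Figure D4:**
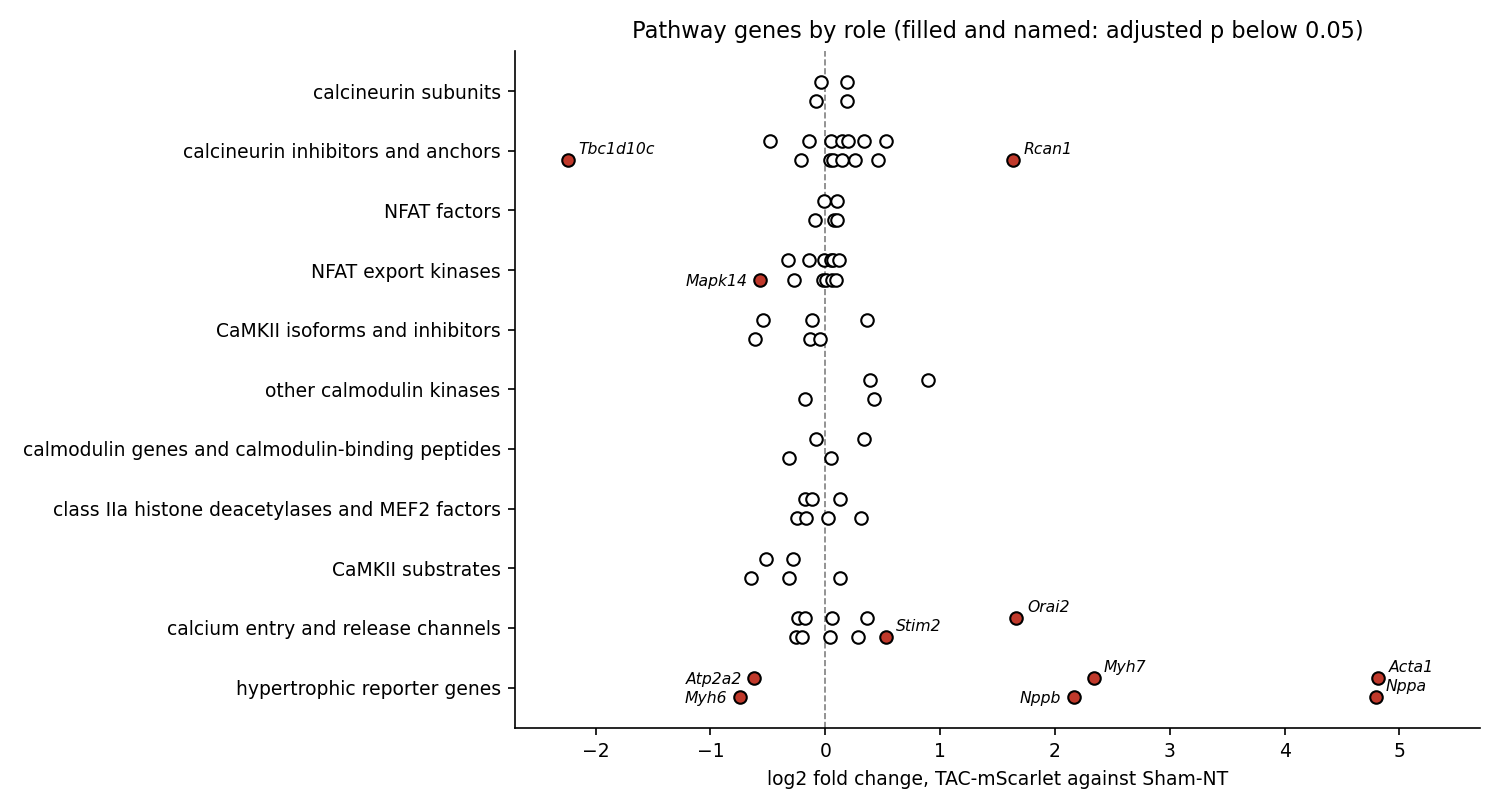
Log2 fold change (x axis) of TAC-mScarlet against Sham-NT for every tested gene of 11 lists, members included, 1 point per gene. Filled, named points passed an adjusted p of 0.05. Outside the reporter genes these are Rcan1 (1.63), Orai2 (1.67), Stim2 (0.53), Mapk14 (-0.56) and Tbc1d10c (-2.24).

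The hypertrophic reporters describe the same ventricles. They were listed with earlier results of these data known, so the number that passed is not independent evidence of their state. All 6 passed in TAC-mScarlet against Sham-NT: Myh7, Nppa, Nppb and Acta1 rose, with log2 fold changes of 2.34, 4.79, 2.16 and 4.82, and Myh6 and Atp2a2 fell, by 0.74 and 0.62. Mouse by mouse, relative to the Sham-NT mean on the log2 scale, Rcan1 stood at 0.25, 1.02, 0.74 and 0.77 in TAC-BacNav, 1.65, 0.42, 1.78 and 2.29 in TAC-mScarlet and 0.56, -0.36, 0.00 and -0.21 in Sham-NT. Nppb, which encodes B-type natriuretic peptide, stood at 1.29, 2.08, 1.79 and 1.16 in TAC-BacNav, 2.03, 1.18, 2.67 and 2.77 in TAC-mScarlet and 0.97, -0.23, -0.42 and -0.32 in Sham-NT. For both genes TAC-mScarlet 2 was the lowest and TAC-mScarlet 4 the highest of its group, TAC-BacNav 2 the highest of its group and Sham-NT 1 the highest of its own. Nppb is set out here because it is among the 5 genes most like Rcan1, so this likeness follows from how it was picked. The other reporters departed from that order in part. Acta1, skeletal alpha actin, also had TAC-mScarlet 2 lowest and Sham-NT 1 highest, but reached 4.81 and 4.86 in TAC-BacNav 3 and 4, near TAC-mScarlet 1 at 4.82. Myh7, the beta myosin heavy chain, was lowest of the TAC-mScarlet mice in TAC-mScarlet 4, at 1.69, where Rcan1 was highest, and peaked in TAC-mScarlet 3 at 2.94. Nppa, which encodes atrial natriuretic peptide, also peaked in TAC-mScarlet 3, at 6.08, and within TAC-BacNav both Myh7 and Nppa were highest in TAC-BacNav 3. Of the exon bases of Nppa, 61.5% are shared with the annotated gene Gm13054 on the opposite strand. The strand setting of the counting was not given, so the count of Nppa is uncertain.

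**Figure D5:**
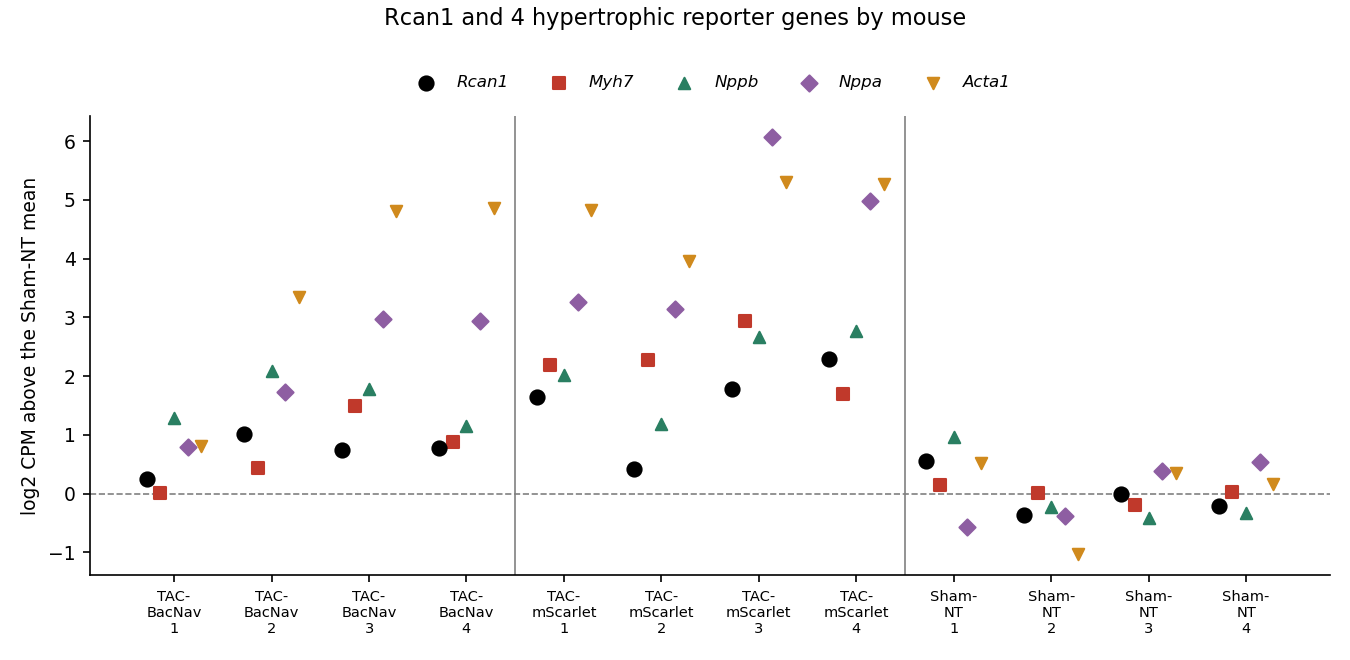
Log2 CPM of Rcan1, Myh7, Nppb, Nppa and Acta1 above the Sham-NT mean (y axis) in each of 12 mice. Rcan1 lies at 1.65, 0.42, 1.78 and 2.29 in the TAC-mScarlet mice, against 0.25 to 1.02 in TAC-BacNav and -0.36 to 0.56 in Sham-NT, and Nppb has its lowest TAC-mScarlet value in the same mouse.

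Over all 12 libraries the genes whose log2 CPM was most like that of Rcan1, among 13784 genes with a mean of at least 1 CPM, were Ckap4, a membrane protein of the endoplasmic reticulum (Pearson r = 0.956), Pcdh9, a protocadherin (0.929), Rras2, a small GTPase of the Ras family (0.922), Slc10a3 (0.919) and Nppb (0.918). These are descriptions over the same libraries of 3 groups, picked as the highest of many. Rras2 averaged 104 CPM in TAC-BacNav, 135 CPM in TAC-mScarlet and 91.3 CPM in Sham-NT, and Ckap4 averaged 44.1 CPM in TAC-BacNav, 58.7 CPM in TAC-mScarlet and 36.2 CPM in Sham-NT. Both passed in TAC-mScarlet against Sham-NT, with log2 fold changes of 0.57 and 0.70 (adjusted p = 0.0229 and 0.0251 by edgeR).

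Of the called pathway genes and reporters, Myh7 kept its call in every alternative tried. Each of the others, like Rcan1, lost it without Sham-NT 2 and again without Sham-NT 4, and all of them except Nppa lost it without TAC-mScarlet 3. The genes called in TAC-mScarlet against Sham-NT then numbered 11 higher and 3 lower without Sham-NT 2, 15 higher and 5 lower without Sham-NT 4, and 68 higher and 29 lower without TAC-mScarlet 3, beside 369 higher and 350 lower with all libraries. Among the libraries with Fos above 20 CPM, Tbc1d10c, Mapk14 and Myh7 kept their calls and the others lost them. Mapk14 also lost its call with library size scaling (adjusted p = 0.0720 by edgeR), Stim2 in the fit of the 2 groups alone (adjusted p = 0.0504) and Myh6 in both (adjusted p = 0.0625 and 0.0637), and these 3 lost it with further single libraries left out. Without Sham-NT 1 (133 higher and 123 lower genes called) the calls of Tbc1d10c, Mapk14, Stim2, Nppa, Myh6 and Atp2a2 were lost, and without TAC-mScarlet 4 (145 higher and 83 lower) those of the same genes except Nppa.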

How the data were processed

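RNA of 12 ventricles, 4 per group, was sequenced as read pairs. The authors deposited 1 table of whole-number counts per gene for each mouse. HISAT2 alignment and featureCounts counting are named in the submitters' processing notes. These notes name the human build GRCh38, while the tables hold mouse Ensembl identifiers, so positions and exon lengths come from GENCODE vM21 (GRCm38). Versions and the strand setting were not given in the sources used here. Deposited tables hold no gene below 30 counts over all libraries.

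Deposited counts were tested in edgeR 4.0.16 (R 4.3.3): filterByExpr left 13910 genes and removed 1047, and 1 robust quasi-likelihood model with TMM scaling covered 12 libraries. Tests were two-sided, adjusted by Benjamini-Hochberg over the genes kept, and called below 0.05. SE is the absolute log2 fold change over the square root of F. Each mouse is a separate animal. No libraries agreed within sampling noise. CPM are counts scaled to 1 M of the TMM-adjusted library total. Log2 CPM for likeness added a prior count of 2. Paralog shares were compared by exact permutation. DESeq2 1.42.0, other scalings, no filter, a mouse-number block, a Fos term and leaving out libraries were alternatives. Named are all members, up to 4 called genes per list and direction, 7 other family genes and the 5 genes most like a called member. Members and lists were chosen with earlier results of these data known. The models were tested on simulated data.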

Additional observations from a re-analysis of the deposited data

How the results depend on the processing

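Rcan1 in TAC-mScarlet against Sham-NT kept its direction under every alternative. Its log2 fold change ran from 1.35 to 1.89 with 1 library left out, and was 1.63 with DESeq2 (adjusted p = 2.3e-05), 1.76 with library size scaling and 1.58 with the replicate block (adjusted p = 0.0252 by edgeR). With libraries above 20 CPM of Fos alone it was 1.23 and the count of members called higher was 0; TAC-mScarlet 4, the library with the highest Rcan1, is not in that set, which called 267 higher and 425 lower genes. That count ran from 0 to 1 with 1 library left out, and the count of members called lower was 0 throughout. Rcan1 ran from -1.21 to -0.68 in TAC-BacNav against TAC-mScarlet and from 0.56 to 0.90 in TAC-BacNav against Sham-NT, and passed in no alternative there.

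The other members lie so near 0 that signs turned without a call. Library size scaling puts the median log2 fold change of all genes at 0.13 for TAC-mScarlet against Sham-NT, where it calls 698 higher and 205 lower genes. That median is -0.026 for TAC-BacNav against TAC-mScarlet, and 0.11 for TAC-BacNav against Sham-NT. Under it, Ppp3ca (0.091), Ppp3cb (0.046), Nfatc2 (0.042) and Camk2g (0.084) turned positive in TAC-mScarlet against Sham-NT, Rcan2 negative (-0.0055) in TAC-BacNav against TAC-mScarlet and Nfatc1 positive (0.070) in TAC-BacNav against Sham-NT. All of these lie nearer to 0 than the median of their comparison. With libraries above 20 CPM of Fos alone, Nfatc4 turned to -0.28 in TAC-mScarlet against Sham-NT, Camk2d to 0.032 in TAC-BacNav against TAC-mScarlet, and Ppp3ca, Nfatc2 and Nfatc4 to -0.051, -0.15 and -0.18 in TAC-BacNav against Sham-NT. The Fos term turned Rcan2 to -0.026 and the replicate block turned Camk2d to 0.00089 in TAC-BacNav against TAC-mScarlet. The cause was not tested.

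With 1 library left out, signs turned in TAC-mScarlet against Sham-NT for Rcan2 (-0.054 to 0.22), Nfatc2 (-0.22 to 0.089), Nfatc4 (-0.094 to 0.20) and Camk2g (-0.12 to 0.020), in TAC-BacNav against TAC-mScarlet for Rcan2 (-0.030 to 0.097), Nfatc4 (-0.041 to 0.22) and Camk2d (-0.054 to 0.034), and in TAC-BacNav against Sham-NT for Rcan2 (-0.032 to 0.24), Ppp3ca (-0.010 to 0.059), Nfatc1 (-0.11 to 0.020), Nfatc2 (-0.040 to 0.28) and Nfatc4 (-0.0058 to 0.26).

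Whether mouse numbers pair the libraries was not settled. Deviations of 12 same-numbered pairs correlated from -0.29 to 0.38, and 8 exceeded 0.1. Differently numbered pairs ran from -0.37 to 0.51. The block gave 442 higher and 447 lower genes in TAC-mScarlet against Sham-NT, 2 and 4 in TAC-BacNav against TAC-mScarlet and 8 and 4 in TAC-BacNav against Sham-NT, and ended the call of Stim2 (0.52, adjusted p = 0.0564 by edgeR). DESeq2 called 667 higher and 703 lower genes in TAC-mScarlet against Sham-NT. No paralog share passed in any alternative, which says nothing about stability. With 4 libraries against 4, a share could pass only if many shares reached the smallest p together. Where a compared group lost a library, too few arrangements remained for any share to pass. Orai2 and Tbc1d10c rest on few counts, which limits their precision.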
